A study of Mus musculus with 3 samples.

Results

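Integrins and laminins, the receptors and the basement membrane ligands of cell adhesion, were followed through the cell classes of the early mouse forelimb bud. The genes were taken by name: every integrin alpha or beta gene with a number and every laminin alpha, beta or gamma chain gene in the count matrix, without Itga2b and without binding protein and integrin-like genes. This gave 27 genes, 17 integrins and 10 laminins, of 15122 genes measured. Itga7, Itgb6 and Lamc3 were not analysed here, and Itgav, whose name holds a letter in place of a number, was kept as a partner gene.

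The cells came from forelimb buds of wild-type embryos, dissociated with trypsin, in 3 droplet libraries of 1 reaction each. Embryos of the strain c57bl6.J gave B6_E9.5 (embryonic stage E9.5) and B6_E10.5 (E10.5), and embryos of 129S6.sv gave 129_E9.5 (E9.5). The labels do not say how many embryos a library holds. With 1 library for each strain and stage, differences between libraries have no replicate check and no test.

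The libraries held 12773, 18957 and 12220 cells in the order above, between 93029510 and 124388358 unique molecular identifiers (UMIs, counted molecules) each, and medians of 5710 to 7623 UMIs per cell. In each library 508 to 657 cells carried a barcode that also occurred in another library, and cells were kept apart by library. Levels are counts per 1000000 UMIs of a class (CPM) and intervals are 95% intervals that cover counting error only. UMIs were counted at transcript 3′ ends and were not divided by transcript length, so levels are compared between classes for a gene and not between genes. The cells lay in 5 clusters set by the authors, here called mesenchyme, ectoderm, muscle, endothelial and erythroid after their marker genes. The endothelial cluster was mixed: in B6_E10.5 it held 1413 CPM of megakaryocyte markers and 878 CPM of macrophage markers beside 1993 CPM of endothelium markers.

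An integrin is a pair of 1 alpha and 1 beta subunit that spans the cell membrane and ties the matrix outside to the actin skeleton inside. A laminin is a trimer of 1 alpha, 1 beta and 1 gamma chain, and laminin networks, joined to type IV collagen by nidogen, form the basement membrane under epithelia and around vessels and muscle. In the limb bud such a membrane separates the ectoderm from the mesenchyme, and muscle precursors and endothelial cells move through the mesenchyme below it.

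The 150 bases before a RefSeq transcription start are shown for 4 of the integrin genes that differed in the apical ectodermal ridge, the signalling rim of the bud: Itga4, Itgb5 and Itgb8, which were higher in ridge cells, and Itga3, which was lower. The sequences are those of RefSeq on the build GRCm38.p6, given 5′ to 3′ on the strand of the gene. Capitals mark matches on either strand to the GC box GGGCGG, the TATA box TATAAA, the AP-2 site GCCNNNGGC, the E-box CACCTG and the TCF/LEF site CTTTGA, motifs that do not overlap here.
Itga4: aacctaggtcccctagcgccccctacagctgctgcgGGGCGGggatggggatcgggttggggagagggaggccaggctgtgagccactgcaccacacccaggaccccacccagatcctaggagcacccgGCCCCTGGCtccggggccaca
Itgb5: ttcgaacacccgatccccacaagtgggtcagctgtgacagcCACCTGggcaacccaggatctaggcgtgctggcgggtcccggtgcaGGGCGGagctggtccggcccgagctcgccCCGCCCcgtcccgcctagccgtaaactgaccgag
Itgb8: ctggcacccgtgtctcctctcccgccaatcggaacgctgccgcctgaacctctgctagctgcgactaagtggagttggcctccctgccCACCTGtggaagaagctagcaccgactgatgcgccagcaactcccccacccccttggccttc
Itga3: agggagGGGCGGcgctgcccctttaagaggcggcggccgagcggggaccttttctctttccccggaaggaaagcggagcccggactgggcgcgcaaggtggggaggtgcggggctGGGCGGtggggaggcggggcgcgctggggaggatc
The RefSeq start is the gene start of GENCODE M21 for Itga4 and Itgb5, but lies 87 bases inside the gene for Itga3 and 526 bases inside for Itgb8, whose window thus lies wholly within the annotated gene. Their positions are chr2:79255276-79255425 on the plus strand for Itga4, chr16:33829515-33829664 on the plus strand for Itgb5, chr12:119238277-119238426 on the minus strand for Itgb8 and chr11:95076715-95076864 on the minus strand for Itga3. Itga4 holds 1 GC box and 1 AP-2 site, Itgb5 holds 2 GC boxes and 1 E-box, Itgb8 holds 1 E-box and Itga3 holds 2 GC boxes. Among 32851 mouse windows of this length the GC box was found in 28.6%, the AP-2 site in 9.61%, the E-box in 10.6%, the TATA box in 7.57% and the TCF/LEF site in 7.93%. Among the 20 windows of the 18 members found in the table the counts were 6, 4, 5, 0 and 1. The 4 windows shared no motif of these 5, and 64% to 74% of their bases were G or C. A match to these letters is a description of the sequence and does not show a bound factor.

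Of the members with a steady highest class, each was highest in ectoderm or in the endothelial cluster. Of the 27 genes, 26 reached 20 UMIs in some class of a library, and Lama3, which reached at most 8 UMIs, did not. In all 3 libraries 14 genes had the same highest class, with an interval over the second class above 1 in each. The highest class was endothelial for 8 of them (Itga1, Itga2, Itga5, Itga6, Itga9, Itgb1, Itgb3 and Lama4), ectoderm for 6 (among them Itga3, Itgb5, Itgb8, Lama5 and Lamb3), and mesenchyme, muscle or erythroid for 0. The other members had no such class: Itga4, Itga8, Lama1 and Lama2, for example, were highest in muscle in at least 1 library. For 7 of the 14 the highest class exceeded the second at least 5-fold in every library. The clusters were made by the authors from the same counts, so these orders are descriptions and were not tested.

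**Figure D1:**
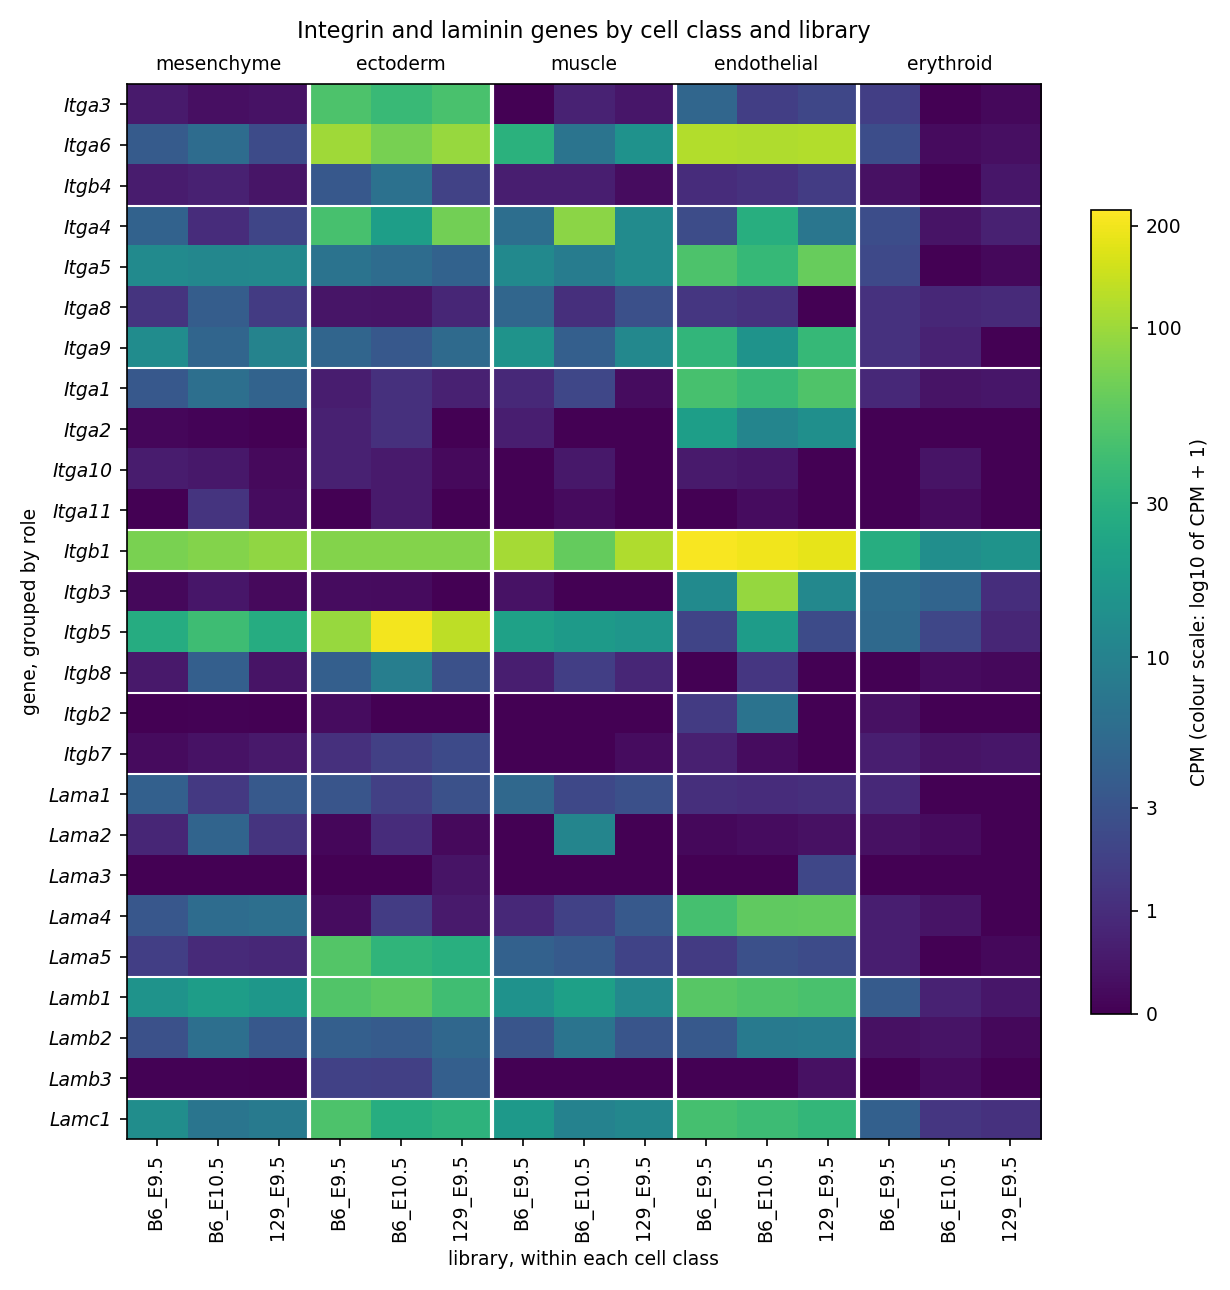
CPM of 26 of the genes (rows, grouped by role) in the 5 cell classes of each library (columns), with colour on a log10 scale of CPM + 1. Itgb1 is bright in every class but the erythroid one, Itga3, Itgb5 and Lama5 are brightest in ectoderm, and Itga1, Itga2, Itga5 and Lama4 in the endothelial class.

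The laminin-binding alpha subunits were found on both sides of the mesenchyme and hardly in it. Itga3, whose product pairs with beta 1 and binds the laminins of epithelial basement membranes, was counted in the ectoderm of B6_E9.5 at 48.6 CPM (44.5 to 52.9), of B6_E10.5 at 38.3 CPM (33.5 to 43.5) and of 129_E9.5 at 45.9 CPM (40.7 to 51.5). It reached at most 4.97 CPM in any other class. Itga6, the subunit of the alpha 6 laminin receptors, was counted in ectoderm at 103, 72.8 and 95.9 CPM and in the endothelial class at 119, 115 and 118 CPM in the same order. The endothelial level of Itga6 was the higher of the 2 in each library, by 1.15-fold where they were nearest. In mesenchyme Itga6 stood at 3.72, 5.73 and 2.42 CPM. Itgb4, the beta subunit that alpha 6 uses in hemidesmosomes, was low, with its highest level in the ectoderm of B6_E10.5 at 6.49 CPM (40 UMIs).

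The laminin chains divided by class in a like way. Lama5, an alpha chain of epithelial basement membranes, was counted in ectoderm at 51.1, 33.7 and 29.6 CPM, and in no other class above 4.37 CPM. Lama4, the alpha chain of vascular basement membranes, was counted in the endothelial class at 44.2, 58.5 and 59.8 CPM and in mesenchyme at 3.32, 5.82 and 6.25 CPM. Lamb3, a beta chain of epithelia, was low and ectodermal, at 1.86, 1.78 and 4.11 CPM there and at most 0.271 CPM elsewhere. Lama3, an epithelial alpha chain, had 2 UMIs in the ectoderm of 129_E9.5 and 0 in the ectoderm of the other libraries, and its highest count was 8 UMIs in the endothelial class of 129_E9.5.

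Lamb1 and Lamc1, the beta and gamma chains shared by most laminins, were counted in both classes. Lamb1 stood in ectoderm at 50.2, 55.8 and 41.3 CPM and in the endothelial class at 53.9, 49.8 and 46.8 CPM. In mesenchyme it was at 15.03, 19.5 and 16.6 CPM. Lamc1 was at 48.2, 28.2 and 32.1 CPM in ectoderm, 44.0, 39.7 and 34.9 CPM in the endothelial class and 13.3, 7.28 and 8.18 CPM in mesenchyme. Lamb2 was low, at 2.83 to 8.66 CPM in the 4 classes other than erythroid, and Lama1, the alpha chain of the first embryonic laminin, at 0.969 to 5.24 CPM in the same classes.

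By CPM, then, mesenchyme was a weak source of laminin, yet as the largest class it held most of the laminin molecules counted. All 10 chains together came to 41.3, 45.9 and 40.1 CPM in mesenchyme, 171, 146 and 129 CPM in ectoderm and 149, 160.5 and 156 CPM in the endothelial class. Muscle was near mesenchyme, at 46.3, 56.5 and 35.0 CPM. Of all laminin UMIs of a library, mesenchymal cells held 55.6%, 63.2% and 63.9%. These shares depend on how many cells of each class were recovered. For single chains the holder differed: mesenchyme held 58.5%, 67.4% and 70.2% of the Lamb1 UMIs, while ectoderm held 73.5%, 59.8% and 70.6% of those of Lama5.

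Set beside this, Itga3 and Itga6 together came to 4.21, 5.98 and 2.72 CPM in mesenchyme against 152, 111 and 142 CPM in ectoderm and 124, 117 and 120.4 CPM in the endothelial class. Muscle lay between, at 30.6, 7.69 and 15.1 CPM. By CPM the mesenchyme was low in these 2 receptors, of whose UMIs it held 13.0%, 28.2% and 11.9%, and the classes richest in laminin were also the classes richest in the receptors. Nid1, the nidogen that links laminin to type IV collagen, had another distribution, with 134, 65.9 and 66.8 CPM in the endothelial class, 31.7, 19.3 and 16.4 CPM in mesenchyme and 0.949 to 2.76 CPM in ectoderm.

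**Figure D2:**
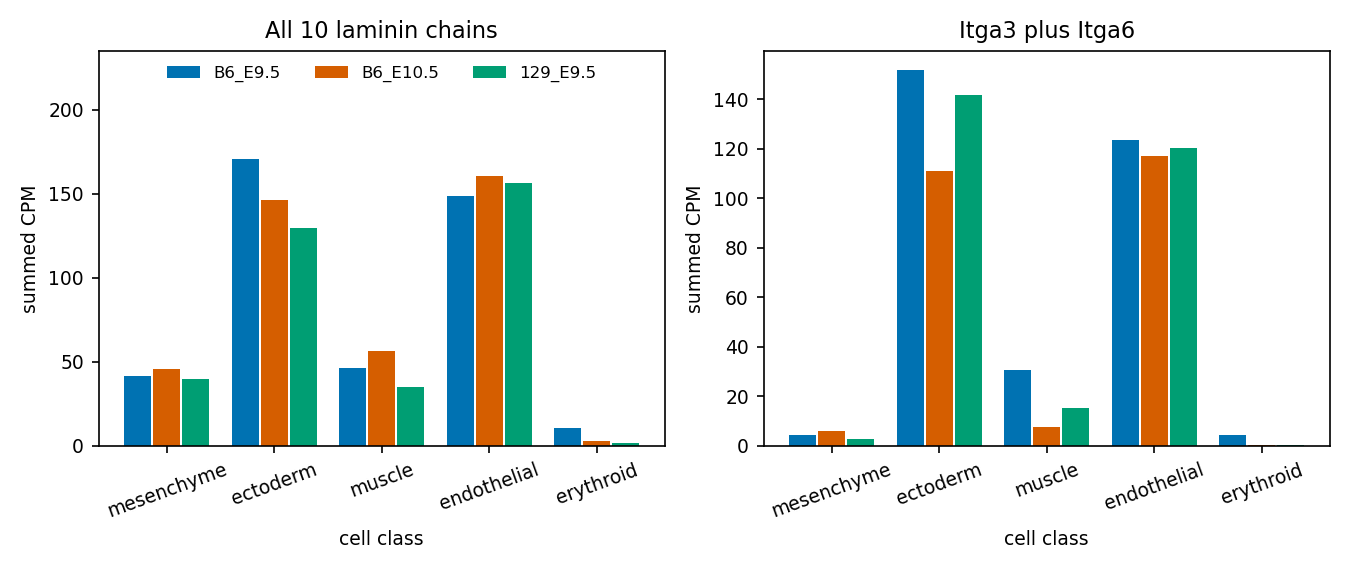
Summed CPM of the 10 laminin chains (left) and of Itga3 and Itga6 (right) in each cell class, with 1 bar per library. Laminin reaches 129 to 171 CPM in ectoderm and endothelium and 40.1 to 45.9 CPM in mesenchyme, where the 2 receptor subunits reach 2.72 to 5.98 CPM.

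Itgb1, the beta subunit shared by most alpha subunits here, was the broadest member. It was counted in mesenchyme at 74.4, 80.5 and 91.0 CPM, in ectoderm at 80.8, 81.1 and 81.5 CPM, in muscle at 108, 61.3 and 117 CPM and in the endothelial class at 211, 197 and 184 CPM. The 3 ectodermal values lay within each other's intervals. Erythroid cells had the lowest level in each library, with 28.2, 13.5 and 15.3 CPM.

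Receptors of fibronectin and related ligands were spread over the classes. Itga5, the classical fibronectin receptor subunit, was counted in the endothelial class at 48.5, 36.6 and 62.8 CPM and in mesenchyme at 12.2, 11.1 and 11.6 CPM. Itga9, a receptor subunit for tenascin and related matrix proteins, stood in the endothelial class at 34.6, 15.1 and 36.8 CPM and in mesenchyme at 12.9, 4.88 and 10.3 CPM. Itga4, which binds fibronectin and the cell surface protein Vcam1, changed its highest class, with ectoderm highest at E9.5 (45.5 and 70.4 CPM) and muscle highest at E10.5 (86.8 CPM). Fn1 itself, the fibronectin gene, was counted in mesenchyme at 74.1, 112 and 56.4 CPM and in ectoderm at 38.4, 69.9 and 39.5 CPM.

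The alpha 8 receptor subunit was low where its ligand was highest. Npnt, which encodes nephronectin, was counted in ectoderm at 51.6, 73.3 and 64.2 CPM and in mesenchyme at 2.32, 4.55 and 3.05 CPM. Itga8, the subunit of its receptor, was at 0.324 to 0.791 CPM in ectoderm at 1.25, 3.95 and 1.57 CPM in mesenchyme and at 4.95, 1.09 and 2.78 CPM in muscle. Tnc, the tenascin C gene, was low throughout, with its highest class level in the mesenchyme of B6_E9.5 at 4.18 CPM.

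Among the partners of the alpha v subunit, Itgb5, a vitronectin receptor subunit, was counted in ectoderm at 95.9, 204 and 130.2 CPM and in mesenchyme at 27.3, 40.3 and 27.8 CPM. Itgb8, known for activation of transforming growth factor beta, was at 4.19, 9.08 and 2.85 CPM in ectoderm. Itgav was counted in ectoderm at 30.9, 30.3 and 14.7 CPM and in mesenchyme at 15.9, 21.6 and 16.7 CPM.

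The collagen receptors were vascular or scarce. Itga1 stood in the endothelial class at 45.2, 38.2 and 49.5 CPM and Itga2 at 19.8, 10.9 and 13.8 CPM. In mesenchyme Itga1 was at 3.45, 6.16 and 4.65 CPM. Itga10 and Itga11, receptors of cartilage and of fibroblasts, did not exceed 0.651 and 1.28 CPM in any class. Of the leukocyte beta subunits, Itgb2 reached 6.78 CPM in the endothelial cluster of B6_E10.5, and Itgb7 at most 2.37 CPM, in the ectoderm of 129_E9.5.

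Within the ectoderm, integrins differed between the ridge and the rest, while 0 of 6 laminins tested passed, or had an unadjusted p under 0.05. Ectodermal cells with at least 1 Fgf8 UMI, the ridge signal, were set against those with none, 251 to 514 cells against 549 to 775 per library. Their UMIs were summed per library and tested with edgeR's quasi-likelihood test with the library as a block, and p-values were adjusted over all genes tested by the method of Benjamini and Hochberg. Of 15 members tested, 4 rose and 2 fell in Fgf8-positive cells at an adjusted p under 0.05, where 11.1% of all genes passed in either direction. The median log2 difference was 0.22 over the 15 members and -0.01 over all genes tested.

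Itga4 was counted at 63.4 against 26.7 CPM in Fgf8-positive and Fgf8-negative cells of B6_E9.5, 40.1 against 13.1 CPM in B6_E10.5 and 119 against 38.8 CPM in 129_E9.5. Each library thus showed a higher level in ridge cells. The log2 difference was 1.51 ± 0.12 (SE, 3 libraries; edgeR adjusted p = 9.18e-05).

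Itgb5 was at 119.6 against 70.8 CPM, 366 against 151 CPM and 202 against 84.1 CPM in the same order. It was higher in ridge cells of each library, by 1.14 ± 0.11 on the log2 scale (edgeR adjusted p = 2.21e-04). Its partner Itgav rose too, by 0.61 ± 0.16 (edgeR adjusted p = 0.0340).

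Itgb8 was at 6.17 against 2.10 CPM, 26.98 against 3.23 CPM and 4.84 against 1.56 CPM. This is a change of 2.30 ± 0.37 on the log2 scale (edgeR adjusted p = 0.00367), resting on 12 to 41 UMIs in the ridge cells of a library. Itga6 was at 122 against 84.2 CPM, 99.4 against 64.1 CPM and 141 against 66.9 CPM, a rise of 0.78 ± 0.11 (edgeR adjusted p = 0.00226).

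The other laminin-binding subunit went the opposite way. Itga3 was at 40.7 against 56.9 CPM, 23.7 against 43.0 CPM and 37.1 against 51.6 CPM, lower in ridge cells of each library by a log2 difference of -0.53 ± 0.12 (edgeR adjusted p = 0.0224). Itga9, with 3 to 9 UMIs in the ridge cells of a library, was at 1.63 against 8.21 CPM, 1.97 against 3.87 CPM and 2.82 against 7.29 CPM, a log2 difference of -1.72 ± 0.37 (edgeR adjusted p = 0.0165). DESeq2 called neither Itga3 (adjusted p = 0.225) nor Itga9 (adjusted p = 0.272). Leaving out 129_E9.5 kept every direction and left Itga4 as the one member under 0.05, with Itgb5 at an edgeR adjusted p of 0.0511. In that fit 48 of all 10899 genes tested rose and 26 fell, where 11.1% of all genes had passed with 3 libraries.

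Itgb1, Lama5, Lamb1 and Lamc1 did not pass, with log2 differences between -0.13 and 0.24. Of the matrix partner genes, 3 of 16 tested rose and 1 fell. Frem1 (0.88 ± 0.20, edgeR adjusted p = 0.01998) and Fras1 (0.55 ± 0.10, adjusted p = 0.00612), which encode proteins of the ectodermal basement membrane, rose with Itgav, and Dag1, which encodes the laminin receptor dystroglycan, fell by 0.61 ± 0.09 (adjusted p = 0.00228). Of the adhesion machinery inside the cell, 2 of 20 tested rose (Tln2 and Fermt2, a talin and a kindlin that activate integrins) and 3 fell (Parva, Lims1 and Actn4).

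Markers of other cell types moved with this split. The 7 limb mesenchyme markers summed to 430.1, 482 and 453 CPM in Fgf8-positive cells and 348, 198 and 189 CPM in the others, of which Msx1, a gene that ridge ectoderm is known to express too, made up 377, 326 and 403 CPM against 226, 40.4 and 104.7 CPM. The 5 neural crest markers summed to 8.87 to 41.5 CPM in Fgf8-positive and 41.2 to 299.9 CPM in Fgf8-negative cells, of which Tfap2b was 3.63 to 38.2 CPM and 31.1 to 294 CPM, while the crest genes Sox10 and Foxd3 were at most at 2.29 CPM. The 3 neuron markers, Tubb3 among them, summed to 104, 147 and 138 CPM in Fgf8-positive and 16.0, 22.4 and 54.2 CPM in Fgf8-negative cells. Their part in the result was not tested.

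The dorsal and ventral sides of the ectoderm were separated by Wnt7a, a dorsal signal, and En1, the ventral gene of the series' title. Cells with a Wnt7a and no En1 UMI (120 to 221 per library) were compared with cells with an En1 and no Wnt7a UMI (315 to 375). Of 11 members tested, 1 was higher and 2 were lower on the dorsal side, where 5.90% of all genes passed. The median log2 difference was 0.06 over the members and 0.00 over all genes.

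Itga4 was at 11.4 CPM in dorsal and 66.5 CPM in ventral cells of B6_E9.5, 6.27 and 32.0 CPM in B6_E10.5, and 11.1 and 97.6 CPM in 129_E9.5. The dorsal level was the lower one in each library. The log2 difference, dorsal minus ventral, was -2.72 ± 0.18 (SE, 3 libraries; edgeR adjusted p = 5.78e-07). That Itga4 is higher in En1-positive ectoderm was known from these data when the split was chosen. Its p-value is thus not independent of that choice.

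Itga6 was at 64.9 and 127 CPM, 57.5 and 80.2 CPM, and 56.3 and 104.5 CPM, lower dorsally by -0.84 ± 0.12 (edgeR adjusted p = 8.20e-04). Itga9 was at 10.7 and 2.16 CPM, 3.14 and 2.56 CPM, and 10.4 and 4.80 CPM, higher dorsally by 1.56 ± 0.40 (edgeR adjusted p = 0.0375), which DESeq2 did not call (adjusted p = 0.807). Its dorsal value in B6_E10.5 rests on 3 UMIs in Fgf8-negative and 0 in Fgf8-positive cells. Of 4 laminins tested 0 passed, and Lamc1 alone had an unadjusted edgeR p under 0.05. Lamc1 was at 54.2 and 41.4 CPM, 35.5 and 28.6 CPM, and 40.3 and 26.7 CPM (0.42 ± 0.14, edgeR adjusted p = 0.101). Itgb1, Itgb5, Itga3, Itga5, Lama5 and Lamb1 did not pass either. The limb mesenchyme markers summed to 298, 168 and 143 CPM in dorsal and 410, 262 and 274 CPM in ventral cells. Neural crest markers summed to 30.4, 279 and 59.0 CPM dorsally and 23.3, 183 and 36.3 CPM ventrally, and neuron markers to 45.9, 41.8 and 59.7 CPM and to 59.4, 73.8 and 113 CPM. The part of these lists in the result was not tested.

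The ridge and the ventral side overlap in these markers, so Itga4 was also read in cells sorted by both. In B6_E9.5 it stood at 90.2 CPM (78.3 to 103) in Fgf8-positive cells with En1 only, 43.6 CPM (35.6 to 52.9) in Fgf8-negative cells with En1 only, 25.8 CPM (17.6 to 36.7) in Fgf8-positive cells with Wnt7a only and 1.18 CPM (0.143 to 4.26) in Fgf8-negative cells with Wnt7a only. In 129_E9.5 the same 4 groups stood at 178, 59.6, 40.5 and 4.28 CPM, and in B6_E10.5 at 49.4, 24.2, 19.5 and 4.68 CPM. The order of the groups was the same in each library, although the third rests on 12 cells and 2 UMIs in B6_E10.5. Cells with neither side marker stood at 54.1, 33.4 and 112 CPM with Fgf8 and at 31.9, 8.39 and 48.2 CPM without it, in the order of libraries used above. In Fgf8-negative cells the intervals of the En1 cells and of the cells with neither marker overlapped in B6_E9.5 (31.9 CPM, 21.95 to 44.8, for neither) and 129_E9.5 (59.6 CPM, 47.0 to 74.7, against 48.2 CPM, 37.3 to 61.3). Cells with the dorsal marker and no Fgf8 had 2 to 5 UMIs of Itga4 per library. Itga6 was at 151 and 88.3, 111 and 39.1, and 166 and 55.2 CPM in Fgf8-positive cells with En1 only and with Wnt7a only, in the order B6_E9.5, B6_E10.5 and 129_E9.5. The 39.1 CPM of B6_E10.5 rests on 4 UMIs in 12 cells, and its interval (10.7 to 100) overlapped that of the En1 cells (88.2 to 138). Without Fgf8 Itga6 was at 104 and 48.4, 66.3 and 59.7, and 75.3 and 56.5 CPM, with overlapping intervals in B6_E10.5 and 129_E9.5. Itga9 had 0 to 29 UMIs in a group. In En1-only cells with and without Fgf8 it was at 2.2 and 2.12, 1.37 and 3.10, and 0 and 7.06 CPM. In Wnt7a-only cells it was at 1.67 and 17.1, 0 and 3.51, and 7.36 and 11.1 CPM.

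**Figure D3:**
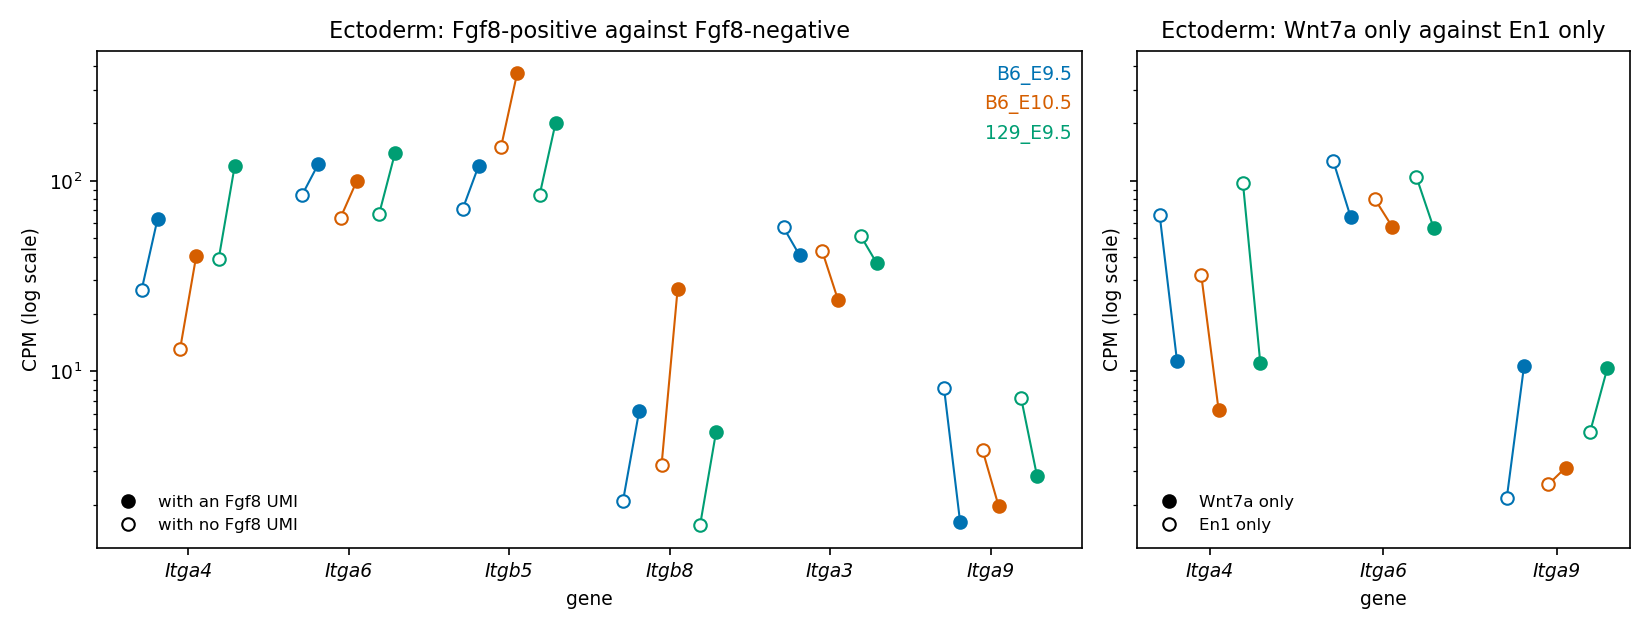
CPM on a log scale of the members that passed in ectoderm, in Fgf8-positive (filled) and Fgf8-negative (open) cells on the left and in Wnt7a-only (filled) and En1-only (open) cells on the right, with lines joining the 2 groups of a library. In each of the 3 libraries Itga4 is higher in Fgf8-positive than in Fgf8-negative cells and lower in Wnt7a-only than in En1-only cells.

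In the mesenchyme, sorting by position or fate gave few calls. Cells with an Lmx1b UMI, the dorsal determinant, were compared with cells without, and 1 of 21 members passed where 5.66% of all genes did. Itga8 was at 0.643 and 1.87 CPM in B6_E9.5, 3.35 and 4.04 CPM in B6_E10.5 and 0.869 and 1.86 CPM in 129_E9.5, lower in Lmx1b-positive cells by -0.92 ± 0.23 (edgeR adjusted p = 0.0429). DESeq2 (adjusted p = 0.185) and the fits without B6_E9.5 (0.155) or without 129_E9.5 (0.309) did not call it. The 2 mesothelium markers with a row, Wt1 and Upk3b, summed to 1.67, 0.319 and 0.676 CPM in Lmx1b-positive and 17.8, 0.422 and 7.06 CPM in Lmx1b-negative cells. The 8 ectoderm markers summed to 9.67, 14.7 and 8.45 CPM and to 33.05, 17.5 and 18.1 CPM, and the part of either list in the result was not tested. Matrix genes differed in the same comparison, with Col4a1, Col4a2 and Nid1 higher and Fn1, Bcam and Tnc lower in Lmx1b-positive cells, 6 of 20 tested. For Tnc the difference was -3.37 ± 0.46 (edgeR adjusted p = 0.00177).

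Between posterior cells with Hand2 only and anterior cells with Alx4 only, 1 of 15 members passed where 1.91% of all genes did. Itgb5 was at 24.8 and 36.2 CPM, 37.5 and 48.3 CPM, and 24.004 and 30.6 CPM in posterior and anterior cells, a log2 difference of -0.44 ± 0.08 (edgeR adjusted p = 0.0212). Each library showed the anterior side higher, by less than 1.5-fold. DESeq2 (adjusted p = 0.194) and the fits without B6_E9.5 (0.194) or without 129_E9.5 (0.139) did not call it. Without B6_E10.5 2 members passed, where 247 of all 11174 genes tested were higher and 173 lower. The limb mesenchyme markers summed to 1565, 1646 and 1608 CPM in posterior and 1868, 2550 and 1977 CPM in anterior cells. Mesothelium markers summed to 13.4, 0.601 and 10.002 CPM posteriorly and 2.33, 0.279 and 0 CPM anteriorly, and neural crest markers to 7.04, 28.2 and 4.75 CPM and to 5.92, 6.70 and 1.76 CPM. The part of these lists in the result was not tested.

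Between mesenchymal cells with and without Sox9, a gene of cartilage precursors, 1 of 21 members passed where 4.49% of all genes did. Itga1, a collagen receptor subunit, was at 2.46 and 3.69 CPM in B6_E9.5, 3.51 and 8.69 CPM in B6_E10.5 and 2.89 and 5.01 CPM in 129_E9.5. It was lower in Sox9-positive cells of each library, by -1.0 ± 0.16 on the log2 scale (edgeR adjusted p = 0.00983). Itga1 was also read by other mesenchymal marker genes in B6_E10.5, with no test. Cells with a UMI of Scx, Meis2 or Hand2 against cells without had ratios of 0.449, 0.388 and 0.582, beside 0.404 for Sox9. Hoxa13 went the other way, at 1.72. Without B6_E9.5 and without B6_E10.5 3 members passed each, Itga1 among them. Of all genes, 503 were higher and 794 lower of 13005 in the first fit, and 416 and 465 of 12572 in the second. Mesothelium markers summed to 5.24, 0.181 and 1.96 CPM in Sox9-positive and 10.7, 0.624 and 5.83 CPM in Sox9-negative cells, and limb mesenchyme markers to 1547, 1676 and 1517 CPM and to 1662, 1952 and 1789 CPM. Their part in the result was not tested. Positive cells of the Lmx1b and Sox9 splits were deeper than negative cells, most in B6_E9.5 (medians of 17533 against 4546 UMIs for Lmx1b and 17175 against 7068 for Sox9).

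Between E9.5 and E10.5 of c57bl6.J, Itga4 and Lama2 were far higher in the later muscle progenitors. A gene was counted as different when its CPM differed at least 2-fold and the higher of both libraries reached 10 CPM and 20 UMIs, a rule of size with no test. The ratios by stage and by strain share the library B6_E9.5. In the muscle class 4 of 9 members that reached this level differed, where 9.62% of all genes did. The median log2 ratio was -0.47 over the 9 members and -0.06 over all genes.

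Itga4 stood in the muscle of B6_E9.5 at 6.12 CPM (3.79 to 9.35), of B6_E10.5 at 86.8 CPM (81.6 to 92.2) and of 129_E9.5 at 12.7 CPM (9.80 to 16.3). The later library was 14.2-fold higher (9.23 to 23.0) than the earlier library of its strain. The share of muscle cells with an Itga4 UMI was 5.96%, 43.0% and 8.35%, and 2.23%, 17.7% and 2.04% after each cell of at least 2000 UMIs was thinned to 2000, against 0.499% to 0.841% of erythroid cells. Lama2, the alpha chain of the laminin of muscle fibres, had 127 UMIs (10.6 CPM) in B6_E10.5 and 0 in both E9.5 libraries. This is 12.1-fold higher than B6_E9.5 when 0 is set to 3 UMIs.

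Other receptors were lower at the later stage. Itga6 stood in muscle at 30.6, 7.02 and 14.7 CPM, a stage ratio of 0.230 (0.170 to 0.309), and Itga9 at 15.1, 4.18 and 11.5 CPM, a ratio of 0.276 (0.183 to 0.415). Itgb1 went from 108 to 61.3 CPM and Itgb5 from 21.3 to 17.98 CPM, both within 2-fold. Nid1 in muscle was also lower at E10.5, at 5.02 against 25.3 CPM. In muscle cells with a Pax3, Lbx1, Myf5 or Myod1 UMI and no neuron or crest marker, the same 4 members differed, with Itga4 at 13.8-fold, where 9.69% of all genes did. Endothelium markers also differed in the muscle class, at 193, 27.1 and 113 CPM, and Itga6, Itga9 and Nid1 are all highest in the endothelial class at E9.5. The part of endothelial signal in these ratios was not tested. A further choice, made after seeing the data, was of muscle marker cells with no UMI of Cdh5, Kdr or Emcn (91, 1437 and 365 cells). The 7 endothelium markers summed there to 25.9, 26.02 and 39.7 CPM. Cdh5, Kdr and Emcn are 0 in that sum by the choice itself, so it is not comparable with the sums of the whole class. There 3 of 5 members differed, where 12.2% of all genes did. Itga6 was at 25.9 and 6.72 CPM (0.259, 0.157 to 0.447) and Itga4 at 9.08 and 85.7 CPM (9.44-fold, 4.57 to 23.5). Lama2 had 0 and 124 UMIs, 2.75-fold higher when 0 is set to 3 UMIs, with an interval from 2.20 upward. Itga9 was too low to be counted.

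Cells with a Myf5 or Myod1 UMI, here called committed, were counted in the later muscle class only. In B6_E10.5, 846 muscle cells had a Myf5 or Myod1 UMI and 546 had Pax3 with neither, while both E9.5 libraries held 0 committed cells, so this comparison has no replicate. Itga4 was at 88.5 CPM in committed and 80.9 CPM in Pax3-only cells, a ratio of 1.09 (0.957 to 1.25), an interval that includes 1. Lama2 was at 12.9 and 7.60 CPM (ratio 1.70, 1.12 to 2.62), Lamb1 at 23.5 and 16.9 CPM (1.40, 1.05 to 1.87) and Lama1 at 3.19 and 0.712 CPM (4.47, 1.35 to 23.3), on 23 and 3 UMIs. Of 15 members with at least 20 UMIs, these 3 had intervals above 1 and 0 had intervals below 1, while 10.7% of all such genes had an interval on either side. Lamb2 (0.667, 0.413 to 1.08) and Lama4 (0.583, 0.218 to 1.56) had ratios under 1.

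In the endothelial cluster 4 of 12 members differed by stage, where 10.3% of all genes did, and the levels of 3 of the 4 were higher in cells with markers of at least 1 other type than in endothelium marker cells. The median log2 ratio was -0.11 over the 12 members and -0.01 over all genes. Itgb3, the beta subunit of the platelet fibrinogen receptor, was at 12.4, 94.4 and 11.6 CPM in the cluster, 7.63-fold higher at E10.5. In cells with endothelium markers only (a UMI of Cdh5, Kdr or Emcn and none of the megakaryocyte, macrophage or neural crest genes) it was at 0.282, 1.09 and 0.979 CPM, on 2, 3 and 3 UMIs, and in the 20 megakaryocyte marker cells of B6_E10.5 at 1426 CPM.

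Itga4 was at 2.55, 28.9 and 7.30 CPM in the cluster (stage ratio 11.3) and at 2.12, 1.81 and 4.24 CPM in endothelium marker cells (ratio 0.857, 0.244 to 2.48). In B6_E10.5 it reached 122 CPM in 63 neural crest marker cells and 53.2 CPM in 94 macrophage marker cells. Itgb5 was at 2.06, 18.8 and 2.43 CPM in the cluster (stage ratio 9.12), and in B6_E10.5 at 56.4 CPM in macrophage marker cells and 3.99 CPM in endothelium marker cells. Itga9, lower at E10.5 in the cluster (ratio 0.437), had a ratio of 0.610 (0.454 to 0.809) in endothelium marker cells.

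Cells with endothelium markers only, 556, 345 and 346 per library, kept the vascular members. Lama4 was there at 45.7, 91.4 and 64.3 CPM, Itga1 at 48.0, 64.6 and 57.1 CPM, Itga5 at 49.98, 55.5 and 74.7 CPM and Itga6 at 124, 133 and 129 CPM. By stage Lama4 came to 1.999-fold (1.69 to 2.36), just under the limit, and Lamb2 was the 1 of 10 members past it, at 3.25 and 11.6 CPM (3.58-fold, 2.03 to 6.40), where 7.28% of all genes passed in these cells.

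**Figure D4:**
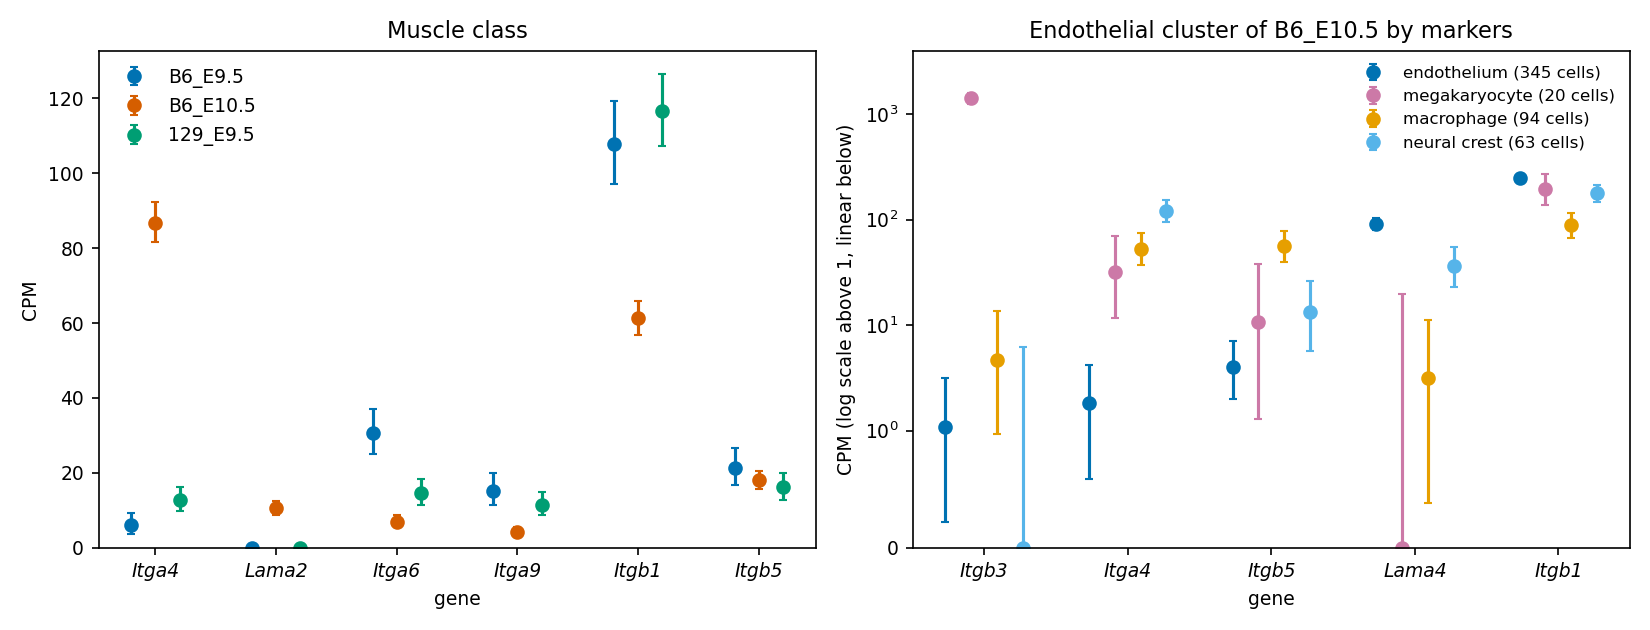
Left, CPM of 6 members in the muscle class of each library. Right, CPM of 5 members in marker-defined cells of the endothelial cluster of B6_E10.5, on a scale that is logarithmic above 1; bars in both panels are 95% Poisson intervals. Itga4 and Lama2 are highest in the muscle of B6_E10.5, and Itgb3 reaches 1426 CPM in 20 megakaryocyte marker cells against 1.09 CPM in endothelium marker cells.

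In ectoderm 2 of 9 members differed by stage, where 5.61% of all genes did, and the members' median log2 ratio was -0.34 beside 0.01 over all genes. Itgb5 went from 95.9 to 204 CPM (2.12-fold, 1.95 to 2.31) and Itga4 from 45.5 to 19.8 CPM (ratio 0.435, 0.353 to 0.531). Itga6 (0.703), Lama5 (0.660) and Lamc1 (0.585) were lower by less than 2-fold. The share of ectodermal cells with Fgf8 also differed, with 251 of 1026 cells in B6_E10.5 and 460 of 1009 in B6_E9.5. By stage, later against earlier, Itgb5 was at 366 against 119.6 CPM in Fgf8-positive and 151 against 70.8 CPM in Fgf8-negative cells, and Itga4 at 40.1 against 63.4 CPM and 13.1 against 26.7 CPM. The part of the ridge share in the class ratios was not tested.

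In mesenchyme 1 of 6 members that reached 10 CPM differed, where 9.30% of all genes did. This was Itga9, at 12.9 and 4.88 CPM (ratio 0.378, 0.338 to 0.421). Below 10 CPM, outside that rule, several members had larger ratios on many UMIs. Itgb8 had 45 and 377 UMIs (9.09-fold, 0.457 to 4.16 CPM), Lama2 77 and 427 UMIs (6.02-fold) and Itga8 123 and 358 UMIs (3.16-fold). Itga11, a collagen receptor subunit of fibroblasts, had 0 and 116 UMIs (42.0-fold higher when 0 is set to 3 UMIs, interval from 33.6 upward). Itga4 and Lama1 were lower, at 0.222-fold and 0.344-fold. In the mesenchyme of B6_E10.5 Itgb8 was at 5.70 CPM in Sox9-positive and 2.69 CPM in Sox9-negative cells, although the test over 3 libraries did not call it (0.73 ± 0.27, edgeR adjusted p = 0.147).

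Between the strains at E9.5, members differed in 1 class. In muscle 2 of 8 members passed the rule of size, where 10.9% of all genes did: Itga4 at 12.7 CPM in 129_E9.5 and 6.12 CPM in B6_E9.5 (2.08-fold, 1.25 to 3.59) and Itga6 at 14.7 and 30.6 CPM (0.481, 0.352 to 0.654). The muscle class of 129_E9.5 also held neuron markers at 745 CPM against 2.04 CPM. Among cells with a muscle marker and no neuron or crest marker, where 10.1% of all genes passed, the ratios were 2.05 and 0.484. Endothelium markers stood at 113 CPM in 129_E9.5 and 193 CPM in B6_E9.5. The part of neuron and endothelium markers in the strain ratios was not tested. In muscle marker cells with no endothelium marker 0 of 4 members passed, where 14.9% of all genes did, with ratios of 1.57 (0.698 to 4.17) for Itga4 and 0.537 (0.306 to 0.973) for Itga6. In cells of at most 5% mitochondrial UMIs neither passed. In mesenchyme (6.74% of all genes), ectoderm (5.79%) and the endothelial cluster (7.40%) 0 members passed, of 6, 9 and 10.

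Below the 2-fold rule, the ectoderm of 129_E9.5 had more Itga4 (1.55-fold, 1.36 to 1.76) and Itgb5 (1.36-fold, 1.24 to 1.49) and less Lama5 (0.579, 0.488 to 0.685) and Lamc1 (0.666, 0.564 to 0.785) than that of B6_E9.5. The ectodermal Itgb1 ratio was 1.01 (0.903 to 1.13). Strain and reaction cannot be told apart for any of these values.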

How the data were processed

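The authors deposited raw UMI counts per gene and cell, 1 unnormalized matrix for 3 libraries of 10x 3′ chemistry. Cell Ranger 3 and the build mm10 are named in the submitters' processing notes, without an annotation release. Cells were assigned to libraries by the stage and strain in the deposited cell table and to classes by its 5 cluster numbers. Symbols came from GENCODE M21 by gene identifier. No further cell filter and no doublet caller was applied.

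UMIs were summed per class and library and given as CPM (per 1000000) with exact Poisson intervals. Ratios carry exact conditional binomial intervals, and a count of 0 was set to 3 UMIs. Marker splits were tested with edgeR 4.0.16 (TMM factors, filterByExpr, glmQLFit and glmQLFTest, library as a block, Benjamini-Hochberg adjustment, threshold 0.05). Both arms of a library come from the same reaction, which is the source of the pairing, and an arm entered with at least 20 cells. The scripts were tested on simulated data. DESeq2 1.42.0 and the other alternatives are given in the closing section. The test planned for committed against Pax3-only muscle cells could not be run, since 0 committed cells were found in the E9.5 libraries.

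Members were named or counted as low, and the results of 1 gene are not reported here singly. Of the lists of matrix partners (22 genes, 20 with a row) and adhesion machinery (23 genes), genes called in a comparison could be named, and Fn1, Npnt, Tnc, Itgav and Nid1 always. The members, lists and splits were chosen with earlier results of these data known, among them that Itga4 is higher in En1-positive ectoderm. Embryos in a library are not numbered in the labels. With the library as a block, p-values set the difference between the arms against its variation between the 3 libraries. edgeR estimates that variation partly from other genes, so a p-value does not rest on the gene's own spread alone. The 3 libraries differ in stage and strain.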

Additional observations from a re-analysis of the deposited data

Results flagged for a closer look

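Itga4 had opposite stage ratios in different classes. It was 14.2-fold higher at E10.5 in muscle (14.186) and 11.3-fold higher in the endothelial cluster (11.342), but lower in ectoderm, at 0.435-fold (0.43466). The difference between the classes was not tested, since there is 1 library for each stage. In cells with endothelium markers only the stage ratio of Itga4 was 0.857 (0.244 to 2.48). In muscle cells with a muscle marker and no neuron or crest marker it was 13.8. In those of them with no endothelium marker it was 9.44 (4.57 to 23.5).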

How the results depend on the processing

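Without the replicate block, that is with the library left out of the model, 0 members passed in each of the 5 splits. The direction of every named member was as before. Of all genes, 65 were higher and 15 lower of 10626 in the ridge split at this setting. The dorsal against ventral split had 1 and 6 of 9570, and the Lmx1b split 1 and 0 of 12809. The Hand2 against Alx4 split had 1 and 1 of 11199, and the Sox9 split 0 and 0 of 12753. With cells thinned to 2000 UMIs, 3 members passed in the ridge split and 2 in the Sox9 split (Itga1 and Lamb1). In the dorsal against ventral, Lmx1b and Hand2 against Alx4 splits 0 passed. Itga4 was too low after thinning to be tested in the dorsal against ventral split. Of all genes, 356 were higher and 179 lower of 8087 in the thinned ridge split, and 322 and 356 of 11341 in the Sox9 split. The dorsal against ventral split had 31 and 72 of 3774. The Lmx1b split had 55 and 46 of 10794, and the Hand2 against Alx4 split 12 and 20 of 6251. DESeq2 called 0 members in the Lmx1b and in the Hand2 against Alx4 split. Of all genes it called 144 higher and 123 lower of 12809, and 54 and 60 of 11199. With cells of at most 16000 UMIs 0 members passed in the Lmx1b split and 2 in the Sox9 split. Of all genes, 74 were higher and 70 lower of 11940, and 296 and 369 of 12509. With no filter on low counts 2 members passed in the Hand2 against Alx4 split, beside 272 and 161 of 14893 genes. Leaving out each library in turn gave 1 to 6 members in the ridge split (1 without 129_E9.5) and 2 to 3 in the dorsal against ventral split. It gave 0 to 1 in the Lmx1b split, 0 to 2 in the Hand2 against Alx4 split and 1 to 3 in the Sox9 split. The next counts, over all genes, leave out B6_E9.5, B6_E10.5 and 129_E9.5 in turn, of 9248 to 13143 genes tested. The ridge split had 744, 860 and 48 higher and 518, 709 and 26 lower. Dorsal against ventral had 83, 679 and 151 higher and 136, 752 and 204 lower. Lmx1b had 342, 788 and 41, and 295, 872 and 31. Hand2 against Alx4 had 91, 247 and 37, and 81, 173 and 29. Sox9 had 503, 416 and 63, and 794, 465 and 74.

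For stage, a minimum of 50 CPM left 0 calls in mesenchyme and 1 each in ectoderm, muscle and the endothelial cluster, and no CPM minimum gave 10 in mesenchyme, 8 in muscle and 7 in the endothelial cluster. TMM factors, DESeq2 size factors and cells of at most 16000 UMIs each gave 2 calls in mesenchyme, Itga9 and Lamc1. In marker cells of the endothelial cluster, an alternative chosen after the data were seen, 1 member was called in place of 4, and the Itga4 ratio turned to 0.857. For strain, no CPM minimum gave 4 calls in mesenchyme, 1 in ectoderm and 3 in the endothelial cluster. In muscle 0 remained at 50 CPM, at most 5% mitochondrial UMIs or in muscle marker cells with no endothelium marker (chosen after the data were seen), and the mitochondrial limit gave 1 in the endothelial cluster. The share of all genes that passed was not counted for the other CPM minima, the scaling factors, and the UMI and mitochondrial limits. The member counts at those settings thus have no background beside them and are not read as particular to the members. The cause of the changes between settings was not tested. No paired analysis was possible for stage and strain because each group has 1 library.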
